A study of Saccharomyces cerevisiae with 20 samples.

Results

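YDL023C, YOR121C and YKL036C are 3 short open reading frame features of Saccharomyces cerevisiae, out of 7127 features counted in 20 ribosome footprint libraries. By systematic name they lie next to GPD1, GCY1 and UGP1, genes of glycerol metabolism and UDP-glucose supply, and each carries the letter of the strand opposite to that gene. They were chosen by their expected counts in the MTF and MTFi libraries, after the difference between these groups had been seen, so that difference is given here as a description without a test. The tests below use the other 16 libraries' comparisons, whose earlier results were also known when the features were chosen.

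GPD1 encodes the NAD-dependent glycerol-3-phosphate dehydrogenase, the first committed step by which yeast turns a glycolytic intermediate into glycerol, its main compatible solute under osmotic stress. GCY1 encodes a glycerol dehydrogenase of the aldo-keto reductase family, which oxidises glycerol to dihydroxyacetone. UGP1 encodes UDP-glucose pyrophosphorylase, which makes the UDP-glucose used for glycogen, trehalose, cell wall glucan and protein glycosylation.

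The libraries come from ribosome profiling: cell lysates were digested with RNase I, 80S ribosomes were collected from a gradient and the RNA left inside them was sequenced. All strains lacked FMT1, the mitochondrial methionyl-tRNA formyltransferase gene, and expressed either EcFMT, named for the Escherichia coli formyltransferase that formylates initiator methionyl-tRNA, or a form with the R42L change. They were grown in SC medium, and frozen after vacuum filtration. Of the 10 groups of 2 libraries, 8 combine EcFMT or R42L with 1 of 4 strains labelled RLI1_depl, NIP1_depl, hrc1D and arf1D, and the other 2 are labelled MTF and MTFi, names that the labels do not spell out. RLI1 encodes the ABC protein that splits ribosomes after termination, NIP1 a core subunit of initiation factor eIF3, and ARF1 a small GTPase of vesicle coating. The spelling hrc1D is kept as the titles give it. The labels do not state how RLI1 and NIP1 were depleted, whether a strain is 1 clone, or whether replicates are separate cultures. The p-values therefore cover the spread between libraries, which may be technical. For the features described here, the edgeR tests took this spread mostly from all features pooled. They do not measure each feature's own spread between replicates.

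Library totals ran from 58090 expected counts in an RLI1_depl R42L library to 505676 in an arf1D EcFMT library. The 2 MTF libraries differed from each other more than those of any other group, with a chi-square of 14.34 per degree of freedom over features with a mean count of at least 50. The hrc1D R42L libraries came next at 4.51, and the other groups lay between 1.48 and 2.27. Differences that rest on MTF or hrc1D R42L libraries are therefore also given with libraries left out.

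The 3 features took 27932 of 4993355 expected counts. YDL023C, 321 nt long, held 22777 of them and ranked 22 among the protein-coding features, with 383 to 2625 counts per library. YKL036C, 393 nt long, held 3019 counts and ranked 108, with 28 to 451 per library. YOR121C, 306 nt long, held 2136 counts and ranked 142, with 45 to 172 per library. All 3 passed the filter on low counts.

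The neighbouring genes held almost none. GPD1 (R64, chromosome IV, 411825 to 413000) had 0 counts in all 20 libraries, and so had UGP1 (chromosome XI, 369891 to 371390), while GCY1 (chromosome XV, 551114 to 552052) had 8 counts spread over 3 libraries. A count of 0 allows up to 3 counts, and this covers counting error only. Across all features, 95.99% of counts lay on open reading frames that the RefSeq table does not list, and the 3 features are among them. This share differed between libraries, from 98.79% in MTFi to 79.39% in an RLI1_depl R42L library. In RLI1_depl it was 84.35% and 83.59% with EcFMT, against 79.39% and 79.81% with R42L. It was 89.99% to 90.36% in NIP1_depl, 96.08% to 96.77% in hrc1D and 98.45% to 98.54% in arf1D. No source used here gives the strand setting of the counting, so footprints of a feature and of the gene across from it cannot be told apart, and the values below are called by the feature's name.

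The position of the features could be bounded only through their neighbours, since their own coordinates are not used here. YOR121C is longer than the 245 nt between GCY1 and PFY1, the profilin gene, so it must overlap at least 1 of them. YKL036C is longer than the 169 nt between UGP1 and AIM26, so it may lie opposite UGP1, opposite AIM26 or across both. AIM26 had 434 counts under its own name, against 3019 on YKL036C. YDL023C would fit within the 1967 nt between GPD1 and DIA3, a gene with 40 counts, so an overlap with GPD1 was not shown by these lengths. PFY1 had 0 counts.

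Levels per length are given as TPM, the authors' values per effective length and per 1e+06. The ranks above and the ratios of counts below are not adjusted for length. YDL023C had 17588 and 17388 TPM in RLI1_depl EcFMT libraries, against 17085 and 15541 TPM in RLI1_depl R42L libraries. It had 20101 and 21563 TPM in NIP1_depl EcFMT libraries, against 20352 and 20194 TPM in NIP1_depl R42L libraries. These 2 strains held its highest values, and within NIP1_depl the 2 forms overlapped. In hrc1D it had 5201 and 5334 TPM with EcFMT, against 7954 and 5746 TPM with R42L. In arf1D it had 2659.8 and 2952 TPM with EcFMT, against 2549 and 3011 TPM with R42L. Every RLI1_depl and NIP1_depl library lay above every hrc1D library, and every hrc1D library above every arf1D library.

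YOR121C reached its highest level in RLI1_depl R42L. It had 994 and 962 TPM in RLI1_depl EcFMT libraries, against 2203 and 2017 TPM in RLI1_depl R42L libraries. It had 1275 and 1376 TPM in NIP1_depl EcFMT libraries, against 1294 and 1203 TPM in NIP1_depl R42L libraries. The 2 forms stood apart in RLI1_depl and overlapped in NIP1_depl. In hrc1D it had 476 and 398 TPM with EcFMT, against 602 and 456 TPM with R42L. In arf1D it had 481 and 605 TPM with EcFMT, against 416 and 619 TPM with R42L. The hrc1D and arf1D libraries overlapped one another and lay below those of the other 2 strains.

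YKL036C ordered the strains differently. It had 918 and 683 TPM in RLI1_depl EcFMT libraries, against 884 and 1055 TPM in RLI1_depl R42L libraries. It had 2771 and 2628 TPM in NIP1_depl EcFMT libraries, against 2604 and 2679 TPM in NIP1_depl R42L libraries. NIP1_depl was the highest strain, with its forms overlapping. In hrc1D it had 1110.0 and 1176 TPM with EcFMT, against 869.65 and 1173 TPM with R42L. In arf1D it had 154 and 119 TPM with EcFMT, against 122 and 144 TPM with R42L. The hrc1D and RLI1_depl libraries overlapped, and all arf1D libraries lay far below both.

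**Figure D1:**
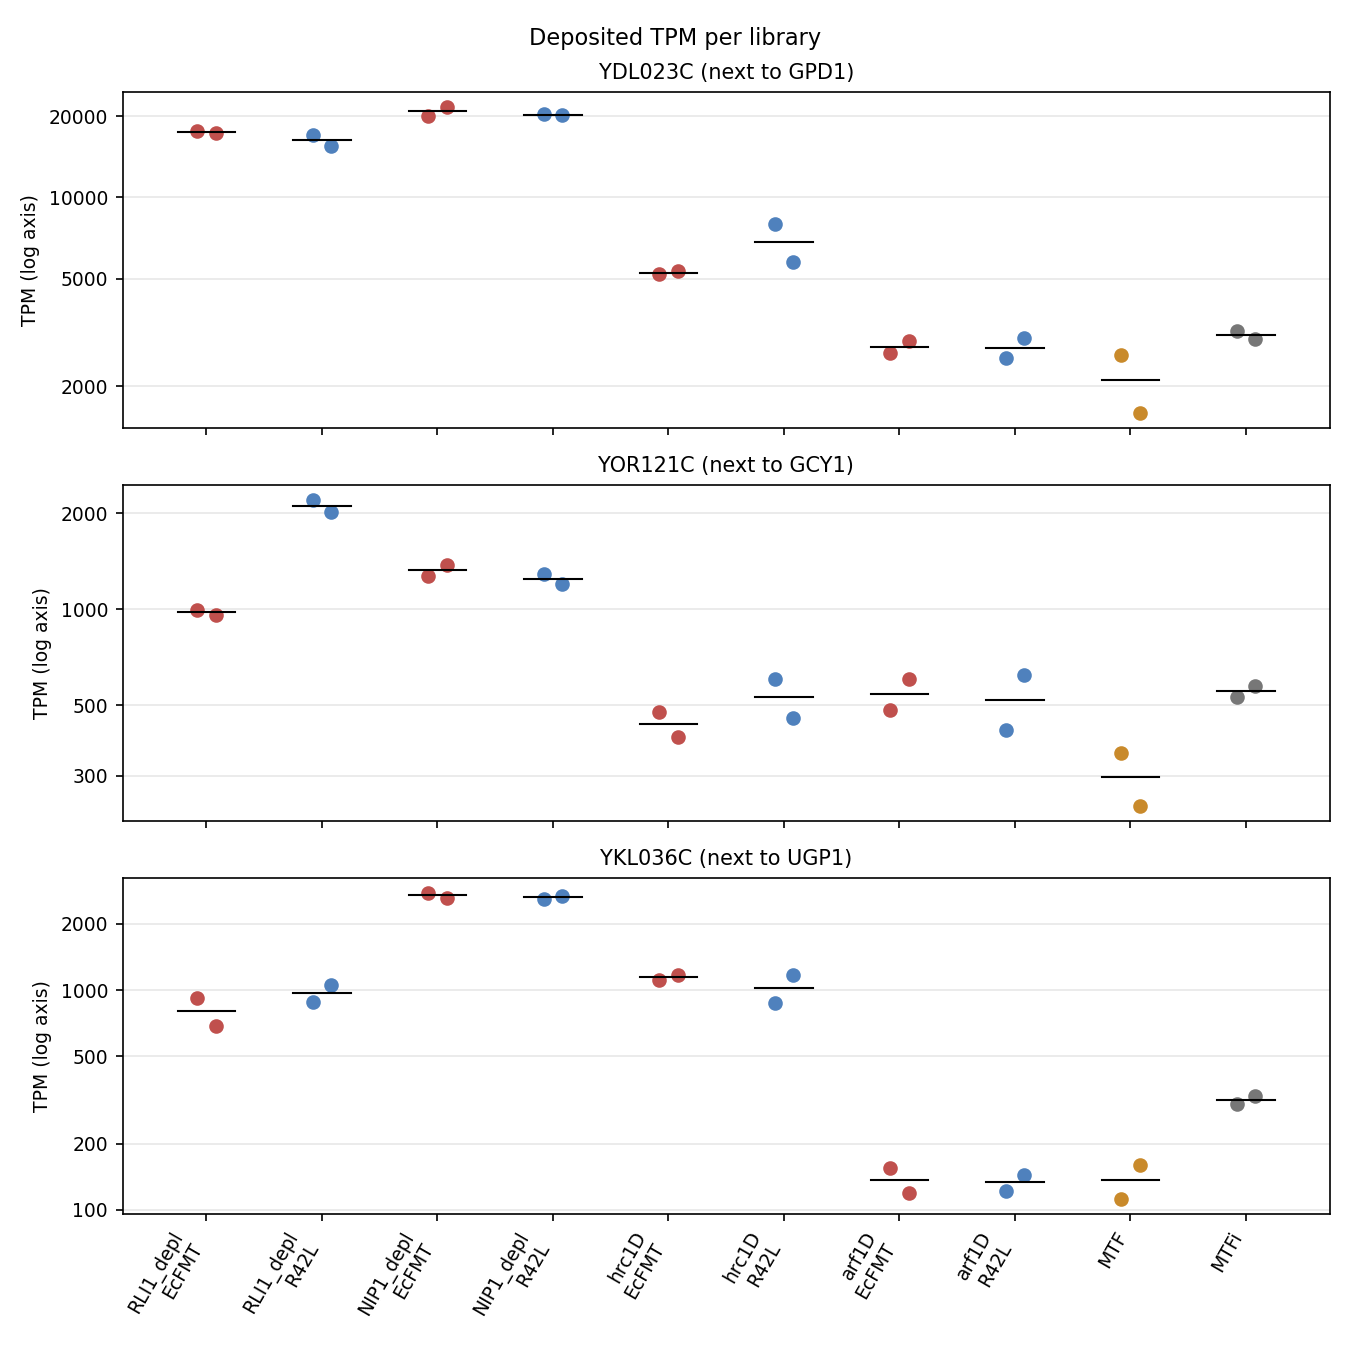
TPM of each feature in each library on a log axis, with 1 point per library and a bar at the mean of the 2 libraries of a group. YDL023C and YOR121C are highest in the RLI1_depl and NIP1_depl libraries, and YKL036C is highest in NIP1_depl and lowest in arf1D, MTF and MTFi.

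TPM is relative to the sum of counts per effective length over all features of a library. Library totals were filled by different features in different strains: TMM scaling factors (trimmed mean of M values) ran from 0.364 to 3.34. The tests below use counts per 1e+06 of the TMM-scaled library size, called scaled CPM, and the strain comparisons are set beside other scalings.

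The first question was whether the features differ between EcFMT and R42L within a strain. In RLI1_depl, YOR121C was lower with EcFMT and YDL023C was higher with EcFMT, while YKL036C differed by less than its error. YOR121C had 288 and 268 scaled CPM in RLI1_depl EcFMT libraries, against 499 and 456 scaled CPM in RLI1_depl R42L libraries. The groups did not overlap, and the log2 difference was -0.78 (SE 0.21, 95% interval -1.19 to -0.36, edgeR quasi-likelihood adjusted p = 0.0124). YDL023C had 5386 and 5110.0 scaled CPM in RLI1_depl EcFMT libraries, against 4075 and 3701 scaled CPM in RLI1_depl R42L libraries, also without overlap. Its log2 difference was 0.43 (SE 0.13, edgeR adjusted p = 0.037). YKL036C had 350.2 and 249.8 scaled CPM with EcFMT, against 262.7 and 312.9 scaled CPM with R42L. The groups overlapped, and the difference of 0.02 had a 95% interval of -0.41 to 0.45 (edgeR adjusted p = 0.997).

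In bulk lysates fewer cells holding an RNA, less of it per cell and fewer ribosomes on it cannot be told apart. In all, 2 of 3 features passed the test in RLI1_depl, where 3.43% of the 1399 features tested did (48, of which 39 were higher and 9 lower with EcFMT). The balance turned with the scaling, to 23 higher and 14 lower with RLE size factors, 12 and 15 among features not in RefSeq, and 11 and 28 with unscaled totals, and 11 to 17 features were called with 1 library left out. Both calls need all 4 libraries. Without any 1 of them YOR121C still differed by -0.76 to -0.70, with edgeR adjusted p-values of 0.206 to 0.32, and YDL023C by 0.45 to 0.52, with edgeR adjusted p-values of 0.177 to 0.328. The lone library of a group is then assumed to vary like the other groups. The YOR121C difference lay between -1.08 and -0.78 under all other settings tried and was not called without a filter on low counts (edgeR adjusted p = 0.156), while DESeq2 gave it no adjusted p. The YDL023C difference fell to 0.29 with RLE size factors, 0.13 with unscaled totals and 0.16 when only features not in RefSeq were fitted, none of them past the threshold.

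A ratio of 2 features within a library is free of scaling factors, and this measure was chosen after the data were seen. In RLI1_depl EcFMT libraries, YOR121C held 5.37% (95% exact binomial interval 4.13 to 6.81) and 5.25% (4.19 to 6.50) of the count of YDL023C. In RLI1_depl R42L libraries it held 12.2% (9.76 to 15.2) and 12.3% (10.4 to 14.6). The 2 pairs of intervals, which cover counting error only, did not overlap. YKL036C held 121% and 93.2% of the count of YOR121C in RLI1_depl EcFMT libraries, against 52.7% and 68.6% in RLI1_depl R42L libraries. Against YDL023C it held 6.50% and 4.89% in RLI1_depl EcFMT libraries, and 6.45% and 8.45% in RLI1_depl R42L libraries, which overlapped. In each other strain the YOR121C to YDL023C ratios of the 2 forms overlapped, between 5.65% and 6.05% in NIP1_depl, 7.08% and 8.69% in hrc1D and 15.5% and 19.5% in arf1D.

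**Figure D2:**
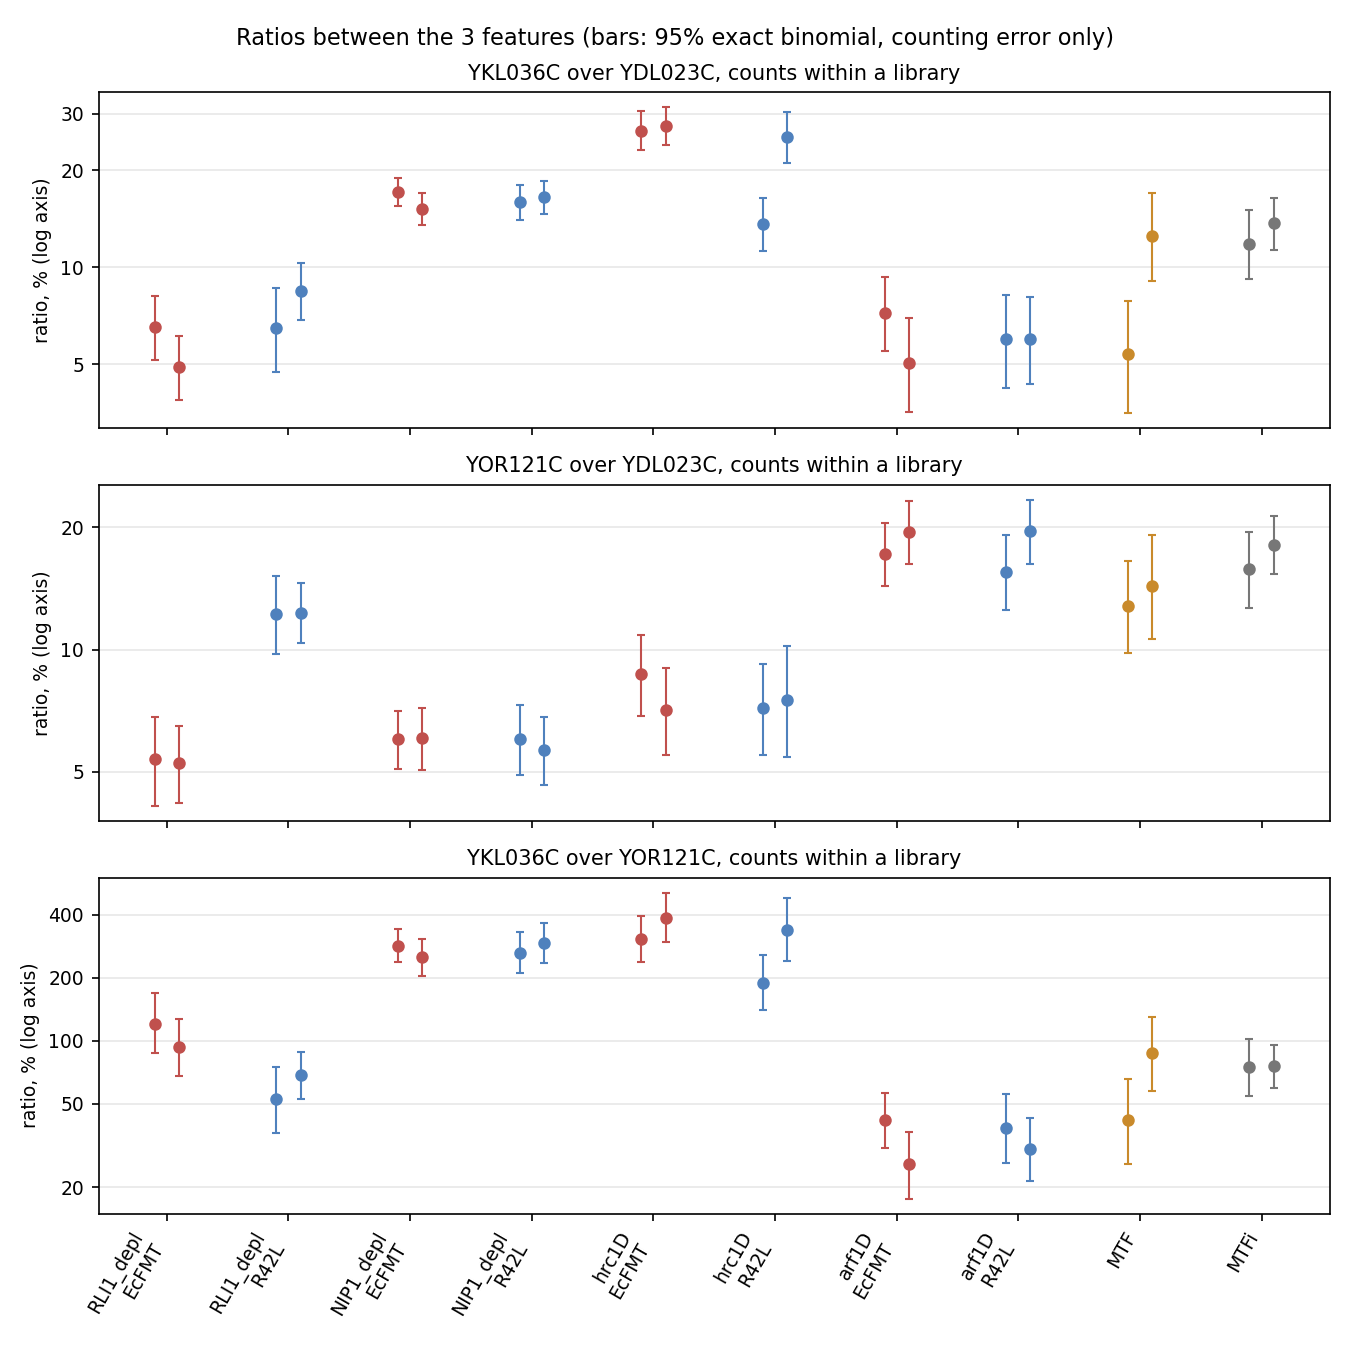
Ratio of the expected counts of 2 features within each library, in percent on a log axis, with 1 point per library and bars for the 95% exact binomial interval of counting error. The middle panel shows RLI1_depl EcFMT at 5.37% and 5.25%, below RLI1_depl R42L at 12.2% and 12.3%, and the upper panel shows NIP1_depl and hrc1D above RLI1_depl and arf1D.

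In the other strains no feature passed the test between EcFMT and R42L, among the 3 or among all 1399 tested. The share called was 0% in NIP1_depl, 0% in hrc1D and 0% in arf1D by edgeR and also 0 features by DESeq2, with 42, 57 and 39 features under an unadjusted edgeR p of 0.05. Other settings called at most 2 features in NIP1_depl, 6 in hrc1D (without the MTF and MTFi libraries) and 1 in arf1D, and none of these settings called 1 of the 3 features. In NIP1_depl the differences were 0.12 for YDL023C, 0.16 for YOR121C and 0.11 for YKL036C. Their 95% intervals reached from -0.23 to 0.55 in all, so differences up to that size cannot be told from none here. In arf1D the differences were 0.01, 0.06 and 0.04, within intervals of -0.46 to 0.55 in all. In hrc1D they were -0.40 for YDL023C, -0.30 for YOR121C and 0.16 for YKL036C. Without hrc1D R42L replicate 1 the hrc1D values of YOR121C and YKL036C were -0.006 and 0.02, and without replicate 2 they were -0.42 and 0.43.

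The hrc1D value of YDL023C also moved with 1 library. It had 3833 and 3972 scaled CPM in hrc1D EcFMT libraries, against 6085 and 4206 scaled CPM in hrc1D R42L libraries, and its unadjusted edgeR p was 0.00323 (adjusted p = 0.754). Without hrc1D R42L replicate 1 the difference was -0.07, and without replicate 2 it was -0.56. Averaged over the 4 strains, EcFMT minus R42L was 0.04 for YDL023C, -0.21 for YOR121C and 0.08 for YKL036C, none past the threshold (edgeR adjusted p = 0.632 for YOR121C, 0.357% of features called). Without hrc1D R42L replicate 1 these means were 0.11, -0.15 and 0.04, and without replicate 2 they were -0.01, -0.25 and 0.14.

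Whether the difference between forms is equal in the 4 strains was tested with an F test, by which edgeR called 0.715% of features. YDL023C was called (F 6.52, edgeR adjusted p = 0.0343), being higher with EcFMT in RLI1_depl and lower with EcFMT in hrc1D. YOR121C was not called (F 4.23, edgeR adjusted p = 0.25), and YKL036C was not (F 0.09, adjusted p = 1). Both outcomes turned with the scaling: with RLE size factors YDL023C had F 2.85 (adjusted p = 0.659) and YOR121C F 6.57 (adjusted p = 0.0189). Without hrc1D R42L replicate 1, YDL023C had F 2.55 (adjusted p = 0.80).

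**Figure D3:**
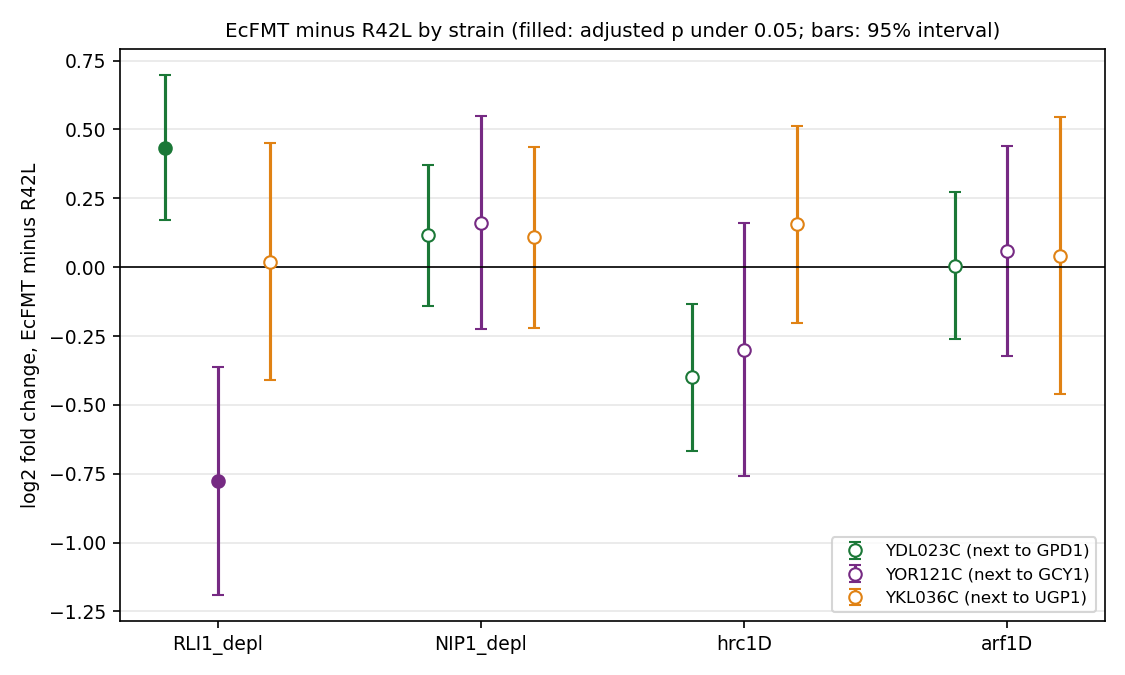
Log2 difference EcFMT minus R42L for the 3 features in each strain, with 95% intervals from the edgeR fit and filled points for an adjusted p under 0.05. Only RLI1_depl has filled points, YDL023C at 0.43 and YOR121C at -0.78, and the intervals of YKL036C include 0 in every strain.

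The second question was how the features differ between strains, over both forms with 4 libraries each. YKL036C was higher in NIP1_depl and hrc1D than in arf1D. It averaged 294 ± 46.3 scaled CPM in RLI1_depl, 1279 ± 58.7 in NIP1_depl, 1002 ± 119 in hrc1D and 256 ± 30.6 in arf1D (SD, n = 4 each). The log2 difference was 2.31 for NIP1_depl minus arf1D (SE 0.15, edgeR adjusted p = 5.68e-54) and 1.96 for hrc1D minus arf1D (SE 0.15, edgeR adjusted p = 7.22e-36). RLI1_depl minus NIP1_depl was -2.12 (SE 0.14, edgeR adjusted p = 3.27e-52). Their directions and calls were kept under all 11 other settings and without any 1 library, with ranges of 2.28 to 4.54, 1.90 to 3.07 and -2.16 to -1.54 over the settings. RLI1_depl minus hrc1D was -1.76 (-1.88 to -1.61 with 1 library left out), but -0.065 and not called with unscaled totals.

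YDL023C was higher in NIP1_depl than in hrc1D and arf1D. It averaged 4568 ± 808 scaled CPM in RLI1_depl, 7909 ± 517 in NIP1_depl, 4524 ± 1052 in hrc1D and 4262 ± 395 in arf1D (SD, n = 4 each). NIP1_depl minus hrc1D was 0.82 (SE 0.09, edgeR adjusted p = 1.20e-16) and NIP1_depl minus arf1D was 0.89 (SE 0.10, edgeR adjusted p = 7.59e-20). Both held under all 11 other settings and without any 1 library, including each hrc1D R42L library, with ranges of 0.56 to 1.94 and 0.84 to 3.12 over the settings. With TMM the medians over all features were 0.40 and 1.19 in these comparisons, so NIP1_depl minus arf1D lay below its median. RLI1_depl minus NIP1_depl was -0.81, but -0.23 and not called with unscaled totals.

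YDL023C in RLI1_depl against hrc1D depended on form and scaling. With TMM and EcFMT libraries alone, RLI1_depl minus hrc1D was 0.43 (edgeR adjusted p = 0.00519), and without either RLI1_depl EcFMT library it was 0.41 to 0.42 and not called. With TMM and R42L libraries alone it was -0.41 (edgeR adjusted p = 0.00982), but 0.29 with RLE size factors, 0.47 among features not in RefSeq and 1.46 with unscaled totals. The R42L value was -0.12 and not called without hrc1D R42L replicate 1, -0.60 without hrc1D R42L replicate 2, and -0.39 and not called without RLI1_depl R42L replicate 2. With EcFMT alone it was positive and called under the same 3 scalings, at 1.02, 1.04 and 1.96. Over both forms the TMM value was 0.01 (0.14 and -0.10 without hrc1D R42L replicates 1 and 2).

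YOR121C kept no direction between RLI1_depl or NIP1_depl and arf1D. It averaged 378 ± 117 scaled CPM in RLI1_depl, 470.5 ± 42.8 in NIP1_depl, 342 ± 66.9 in hrc1D and 769 ± 152 in arf1D (SD, n = 4 each). NIP1_depl minus arf1D was -0.71 (SE 0.14, edgeR adjusted p = 1.27e-06), but 0.14 with RLE size factors, 0.30 among features not in RefSeq and 1.52 with unscaled totals. RLI1_depl minus arf1D was -1.08, but -0.07, 0.16 and 1.74 under the same 3 settings. RLI1_depl minus NIP1_depl was -0.37 (edgeR adjusted p = 0.0272), but -0.21 and not called with RLE size factors or DESeq2, -0.14 and not called among features not in RefSeq, -0.33 and not called without a filter, and positive with unscaled totals (0.21) and with R42L libraries alone (0.10). It was also not called without any 1 of 5 of the 8 libraries, at -0.39 to -0.33, these being RLI1_depl EcFMT replicates 1 and 2, RLI1_depl R42L replicate 2, NIP1_depl EcFMT replicate 2 and NIP1_depl R42L replicate 1. hrc1D minus arf1D was -1.17 (-1.31 to -1.02 with 1 library left out), but -0.052 and not called with unscaled totals (edgeR adjusted p = 0.893). NIP1_depl minus hrc1D was positive under every setting, between 0.23 and 1.58, and was not called with R42L libraries alone (0.23), without hrc1D EcFMT replicate 2 (0.40) or without hrc1D R42L replicate 2 (0.38). With TMM this value was 0.46, near the median of 0.40 over all features.

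Between strains a call is common, and more so when only features not in RefSeq, like these 3, were fitted (233 to 354 of 440). Over all 1399 features, edgeR called 42.7% in RLI1_depl minus NIP1_depl, where all 3 features were called with TMM. It called 57.7% in RLI1_depl minus hrc1D, where YKL036C was called, and 73.3% in RLI1_depl minus arf1D, where YOR121C was called. It called 45.6% in NIP1_depl minus hrc1D and 62.4% in NIP1_depl minus arf1D, with all 3 features called in both (YKL036C in the first at 0.36, and not called at 0.27 without hrc1D R42L replicate 1), and 35.5% in hrc1D minus arf1D, where YOR121C and YKL036C were called. The median difference of all features was 0.06, 0.68, 1.77, 0.40, 1.19 and 0.37 in the same order. With unscaled totals those medians were 0.64, 2.36, 4.35, 1.47, 3.16 and 1.29. Relative to the median of all features, NIP1_depl minus arf1D was 1.12 for YKL036C, -0.30 for YDL023C and -1.90 for YOR121C.

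**Figure D4:**
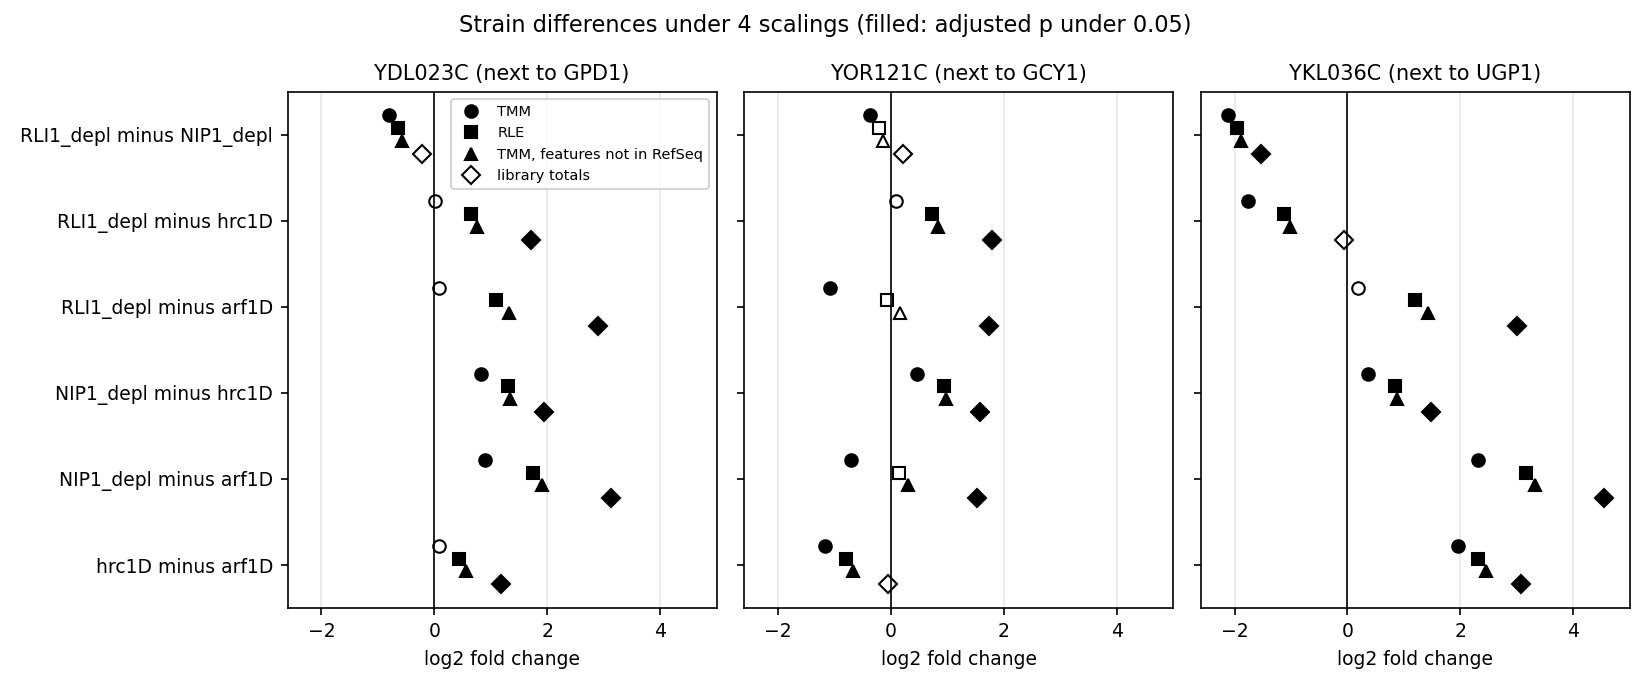
Log2 difference between strains for each feature under 4 scalings (TMM, RLE, TMM over features not in RefSeq, and library totals), with filled symbols for an adjusted p under 0.05. YKL036C stays right of 0 in NIP1_depl minus arf1D and hrc1D minus arf1D, at 2.31 and 1.96 with TMM, while YOR121C lies on both sides of 0 in the comparisons of RLI1_depl and NIP1_depl with arf1D.

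The ratios within a library put the strains apart without any scaling. YKL036C held 4.89% to 8.45% of the count of YDL023C in RLI1_depl, 15.2% to 17.2% in NIP1_depl, 13.6% to 27.5% in hrc1D and 5.03% to 7.21% in arf1D. The NIP1_depl and hrc1D ranges overlapped each other, and so did those of RLI1_depl and arf1D, with no overlap between the 2 pairs of strains. The lowest hrc1D value came from R42L replicate 1. YKL036C held 251% to 292% of the count of YOR121C in NIP1_depl, 189.6% to 388% in hrc1D, 52.7% to 121% in RLI1_depl and 25.9% to 42% in arf1D.

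In the MTF and MTFi libraries, which chose the features, all 3 were lower in MTF. YDL023C had 3868 and 2417 scaled CPM in MTF libraries, against 4421 and 5318 scaled CPM in MTFi libraries. YOR121C had 496 and 347 scaled CPM in MTF libraries, against 696 and 963 scaled CPM in MTFi libraries. YKL036C had 207 and 303 scaled CPM in MTF libraries, against 522 and 728 scaled CPM in MTFi libraries. No feature's groups overlapped, as the choice implies. The log2 differences were -0.64, -0.999 and -1.29, beside a median of 0 over all features and 1.72% of features called, from which nothing is read. They were -0.98 to -0.31, -1.23 to -0.71 and -1.58 to -0.98 with 1 library left out, which includes each of the 2 unlike MTF libraries.

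On the TPM scale MTF libraries were low in all 3 features. YDL023C had 2616 and 1594 TPM in MTF libraries, against 3193 and 2997 TPM in MTFi libraries. YKL036C had 112 and 160.4 TPM in MTF libraries, against 303 and 329 TPM in MTFi libraries. YOR121C had 353 and 241 TPM in MTF libraries, against 531 and 572 TPM in MTFi libraries. The arf1D libraries overlapped MTF in YDL023C and YKL036C, while for YOR121C both MTF libraries lay below those of every other group. The ratio of YKL036C to YDL023C was 5.35% and 12.5% in MTF libraries, against 11.8% and 13.7% in MTFi libraries, so the 2 MTF libraries also disagreed on it.

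Other genes of these pathways were counted from 4 lists: 15 genes of glycerol metabolism and transport, 20 of the HOG osmosensing pathway, 24 of storage carbohydrate and 10 of UDP-glucose use. Under their own names 2, 2, 5 and 1 of them passed the filter on low counts. Of the features whose names allow a place opposite a list gene, 4 of 5, 4 of 4, 6 of 8 and 2 of 3 passed. The 3 features described above are included. For most of these features the name also allows a gene outside the lists, such as COA1 beside GUT2 for YIL156W-A. Such features were kept, and without the 3 features described above 22 remained. Between EcFMT and R42L, edgeR called 0 of 22 in each strain and in the mean of the 4 strains, DESeq2 called 0, and 1 had an unadjusted edgeR p under 0.05, in hrc1D. Of all features edgeR called 3.43% in RLI1_depl, 0% in the other 3 strains and 0.357% for the mean, so a count of 0 among 22 lies near the background.

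Between strains the 22 features went both ways. With TMM, 9 of 22 were called in RLI1_depl minus NIP1_depl (42.7% of all features), 8 in RLI1_depl minus hrc1D (57.7%), 17 in RLI1_depl minus arf1D (73.3%), 13 in NIP1_depl minus hrc1D (45.6%), 16 in NIP1_depl minus arf1D (62.4%) and 11 in hrc1D minus arf1D (35.5%). In NIP1_depl minus arf1D, 9 were higher and 7 lower with TMM, beside 568 higher and 305 lower of all 1399, and the median was 0.12, beside 1.19 for all features. The 22 mix list genes under their own names with features placed opposite them by name, and these kinds split. Every list gene called under its own name was higher, with 37 to 327 counts each in all. All 7 called lower were opposite features, most of which were called lower. With RLE size factors 13 of the 22 were higher and 6 lower, beside 794 and 217 of all, and with unscaled totals 14 and 4, beside 1038 and 94. Among features not in RefSeq, 6 of 12 were higher and 6 lower, beside 170 and 184 of 440. The 4 with the smallest adjusted p were all lower in NIP1_depl. The genes given with each are those that its name allows on the other strand, not its position. YMR307C-A (FKS3 or the cell wall glucanosyltransferase gene GAS1) had -3.31. YPR160C-A (the glycogen phosphorylase gene GPH1 or the glucan synthesis gene KRE6) had -3.11. YML101C-A (CAC2 or the trehalose synthase subunit gene TSL1) had -3.16, and YDR537C (PAD1 or the glycerol transporter gene STL1) had -2.99. These 4 features stayed negative and called under the 4 scalings, at -1.07, -0.88, -0.94 and -0.77 with unscaled totals. YKL036C, at 2.31, lay on the other side of 0 from these 4, as did the 9 of the 22 features called higher with TMM. Most of those 9 were list genes under their own names.

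The 3 features did not share 1 pattern over the 8 strain and form groups. As a description over group means of log2 scaled CPM, which share libraries and scaling factors, Pearson's r was 0.64 between YDL023C and YKL036C, -0.10 between YDL023C and YOR121C, and -0.41 between YOR121C and YKL036C. Among 1284 features with an average log2 CPM of at least 4, YKL036C was most like UGA1, the GABA transaminase gene, with r 0.99 from 83 counts in all, then YDR431W at 0.97 and YGR242W at 0.96. YDL023C was most like YDR203W at 0.95, BST1 at 0.94 and SMP3 at 0.91. BST1 and SMP3 had 114 and 73 counts in all, and over the 16 libraries their r with YDL023C was 0.65 and 0.63, which ranked 81 and 99. YOR121C was most like YNL097W-A at 0.90, YFR056C at 0.86 and YIL066W-A at 0.86.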

How the data were processed

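Ribosome footprints of 20 yeast libraries were analysed; RNA sequencing named by the series is not analysed here. Per the submitters' processing notes, STAR 2.7.2b and RSEM 1.2.31 were used with build R64. The authors deposited RSEM expected counts, TPM and feature lengths per feature. Expected counts were rounded for tests; the 3 features were not whole (tolerance 1e-06) in 3 to 8 libraries. A RefSeq table (R64) matched 6047 features. Protein-coding features (6691) were filtered with filterByExpr (minimum 10), which kept 1399, and fitted with edgeR 4.0.16 in R 4.3.3 (robust quasi-likelihood, TMM, 1 mean per group over all 20 libraries, 10 residual degrees of freedom). For the 3 features, edgeR tests and intervals used far more degrees of freedom than these 10, borrowed from all features. P-values were adjusted by Benjamini-Hochberg over all features, with a threshold of 0.05. DESeq2 1.42.0, other scalings, filters and left-out libraries were alternatives, and the scripts were tested on simulated data. Members and lists were chosen with earlier results of these data known. Named genes are the 3 features, their neighbours, at most 4 list features per comparison by smallest adjusted p, and the 3 most alike by r. Opposite genes were read from systematic names. RLI1_depl libraries had 58090 to 123204 counts each and included the shallowest, though NIP1_depl R42L replicate 1, with 116661, lay within that range.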

Additional observations from a re-analysis of the deposited data

Results flagged for a closer look

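The difference between EcFMT and R42L in YDL023C was marked because an F test found it unequal in the 4 strains (F 6.5185, edgeR adjusted p = 0.0343). It was 0.43 in RLI1_depl, 0.12 in NIP1_depl, -0.40 in hrc1D and 0.01 in arf1D on the log2 scale. The call was lost in 13 of 16 fits with 1 library left out and kept in 4 of 9 other settings, with F down to 1.555. The hrc1D value was -0.07 without R42L replicate 1. What lies behind the difference was not tested.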

How the results depend on the processing

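Values are log2 differences unless called F, and the cause of each change was not tested. Under every setting and left-out library tried, direction and call were kept by YDL023C in NIP1_depl minus hrc1D and minus arf1D, and by YKL036C in NIP1_depl minus arf1D, hrc1D minus arf1D and RLI1_depl minus NIP1_depl. With RLE size factors, YDL023C had 0.29 for EcFMT minus R42L in RLI1_depl (no longer called), and 0.66 in RLI1_depl minus hrc1D, 1.09 in RLI1_depl minus arf1D and 0.44 in hrc1D minus arf1D (all newly called). YOR121C had -0.21 in RLI1_depl minus NIP1_depl, 0.73 in RLI1_depl minus hrc1D, -0.07 in RLI1_depl minus arf1D and 0.14 in NIP1_depl minus arf1D, and YKL036C had 1.195 in RLI1_depl minus arf1D. For equal differences in the 4 strains, F was 2.85 for YDL023C and 6.57 for YOR121C. DESeq2 gave 0.29, 0.66, 1.09 and 0.43 for the same 4 values of YDL023C, -0.21, 0.74, -0.07 and 0.14 for those of YOR121C, and 1.199 for YKL036C. Its likelihood ratio statistic for YDL023C was 7.31, and its adjusted p for YOR121C in RLI1_depl EcFMT minus R42L was not given. With unscaled totals, YDL023C had 0.13 for EcFMT minus R42L in RLI1_depl, -0.23 in RLI1_depl minus NIP1_depl, 1.71 in RLI1_depl minus hrc1D, 2.90 in RLI1_depl minus arf1D and 1.19 in hrc1D minus arf1D. YOR121C had 0.21, 1.79, 1.74, 1.52 in NIP1_depl minus arf1D and -0.052 in hrc1D minus arf1D, the first 3 in RLI1_depl minus NIP1_depl, hrc1D and arf1D. YKL036C had -0.065 in RLI1_depl minus hrc1D and 3.0 in RLI1_depl minus arf1D, and F was 1.64 for YDL023C and 8.56 for YOR121C. With only features not in RefSeq, YDL023C had 0.155 for EcFMT minus R42L in RLI1_depl, 0.75 in RLI1_depl minus hrc1D, 1.32 in RLI1_depl minus arf1D and 0.57 in hrc1D minus arf1D. YOR121C had -0.14, 0.83, 0.16 and 0.30 in RLI1_depl minus NIP1_depl, hrc1D and arf1D and in NIP1_depl minus arf1D. YKL036C had 1.43 in RLI1_depl minus arf1D, and F was 1.555 for YDL023C and 7.79 for YOR121C. With no filter on low counts, EcFMT minus R42L in RLI1_depl was 0.40 for YDL023C and -0.82 for YOR121C, RLI1_depl minus NIP1_depl was -0.33 for YOR121C, NIP1_depl minus hrc1D was 0.40 for YKL036C, and F was 1.93 for YDL023C.

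Without the MTF and MTFi libraries, a setting chosen after seeing the data, RLI1_depl minus arf1D was 0.37 for YDL023C and 0.47 for YKL036C, hrc1D minus arf1D was 0.26 for YDL023C, and F was 6.46 for YOR121C. With only the libraries compared they were 0.33, 0.44, 0.23 and F 6.46. With R42L libraries alone, YOR121C had 0.10 in RLI1_depl minus NIP1_depl and 0.23 in NIP1_depl minus hrc1D, YDL023C had -0.41 in RLI1_depl minus hrc1D, and YKL036C had 0.38 in NIP1_depl minus hrc1D. With R42L alone and RLE size factors, features not in RefSeq or unscaled totals, settings chosen after seeing the data, YDL023C had 0.29, 0.47 and 1.46 in RLI1_depl minus hrc1D. With EcFMT libraries alone, YDL023C had 0.43 in RLI1_depl minus hrc1D and 0.30 in RLI1_depl minus arf1D, and YKL036C had 0.33 in NIP1_depl minus hrc1D. With 1 library left out, calls were lost for EcFMT minus R42L in RLI1_depl (YDL023C 0.45 to 0.52, YOR121C -0.76 to -0.70), the F test of YDL023C (2.55 to 6.94, lost in 13 of 16), RLI1_depl minus NIP1_depl of YOR121C (-0.43 to -0.33), and NIP1_depl minus hrc1D of YOR121C (0.38 to 0.61) and YKL036C (0.27 to 0.47).

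The number of features called for EcFMT minus R42L in RLI1_depl was 48, but 9 without a filter and 11 to 17 with 1 library left out. For the mean over 4 strains it was 5, with 0 to 26 over the settings, and for the F test 10, with 1 to 30. Between strains 233 to 354 of 440 were called among features not in RefSeq, in each comparison a larger share than among all 1399. With unscaled totals, 91.7% of the features called in NIP1_depl minus arf1D were higher in NIP1_depl, against 65.1% with TMM.

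Same-numbered libraries did not visibly deviate together (r from -0.30 in NIP1_depl to 0.04 for MTF and MTFi, over 246 features). The labels do not say whether the numbers mark pairs, and a low r cannot show that they do not. The main fit used no pairing. With a replicate block, YOR121C in RLI1_depl EcFMT minus R42L was -0.78 (edgeR adjusted p = 0.00467), 53 features were called there, 12 for the mean over 4 strains and 17 by the F test. With a crossed replicate block, 0 features were called in arf1D and 2 in NIP1_depl. Depth limits YOR121C and YKL036C most, with as few as 45 and 28 counts in a library.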
